A study of Mus musculus with 5 samples.

Results

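The 10 genes described here are Pdk1, Hif1a and 8 genes of glycolysis or of the response to low oxygen (Slc2a1, Ldha, Pgk1, Pfkp, Hk2, Bnip3, Vegfa and Egln3). They were chosen by name, out of 24399 genes in the deposited count table, and each is represented by the transcript row with the most counts. All 10 passed the filter on low counts and were tested. They were measured by RNA sequencing of FACS-sorted LSK cells (Lin- Sca1+ cKit+), a compartment of mouse marrow made up of blood stem cells and early multipotent progenitors. The mice were C57BL/6 and 12 months old, and carried either the wild-type or a germ line knockout allele of Aid. The titles name 3 libraries KO and 2 WT. Because the genotype given for the first 3 is Aid+/-, they are called KO-titled throughout. The series' design also names Aid-/- animals, and the titles carry the prefix AIDTET, which the labels do not explain.

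Counts with 1 transcript row per gene ran from 29964556 to 39691066 per library. Nothing in the labels ties each library to its own animal, so the p-values reflect a spread between libraries that may be technical only. The summed level of 12 LSK marker genes, among them Kit, Ly6a and Cd34, was 4718 to 4886 CPM (a count relative to its library's TMM-scaled size) in KO-titled and 4784 to 4808 CPM in WT libraries. Of these 12 genes 0 rose and 0 fell at an adjusted p under 0.05 with edgeR, and 3 had an unadjusted p under 0.05. Of all genes tested, 0.79% rose and 1.18% fell, and 13.8% had an unadjusted p under 0.05. Of 14 erythroid markers 6 rose and 0 fell (summed level 1276 to 1655 against 918 to 1051 CPM). Of 14 granulocyte and monocyte markers 1 rose and 5 fell (3294 to 4107 against 4764 to 5105 CPM). Of 13 tested lymphoid cell markers 0 rose and 1 fell, and of 9 tested stromal and endothelial markers 0 rose and 1 fell, with sums of 172.8 to 197.1 against 195.4 to 206.7 CPM and of 326.7 to 481.6 against 515.5 to 603.4 CPM. No marker of these lists was at or under 3 counts in every library. The part of these shifts in the results below was not tested, and in bulk samples fewer cells of a type and less RNA per cell cannot be told apart.

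Glycolysis converts glucose to pyruvate in the cytosol, and pyruvate is then either reduced to lactate or oxidised in mitochondria through the pyruvate dehydrogenase complex. Pyruvate dehydrogenase kinases, among them Pdk1, phosphorylate and inhibit that complex. Hif1a is the oxygen-regulated subunit of hypoxia-inducible factor 1, which is degraded when prolyl hydroxylases such as Egln3 act on it and which otherwise binds DNA at hypoxia response elements and raises transcription of glucose transporters, glycolytic enzymes, Pdk1, Bnip3 and Vegfa. Haematopoietic stem cells are known for a reliance on glycolysis in a marrow that is low in oxygen. Regulation of Hif1a acts largely on the protein, which messenger RNA counts do not measure.

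The core of the hypoxia response element is ACGTG or GCGTG. It was searched on both strands in the 250 bases before each RefSeq start (GRCm38.p6), overlapping matches being counted as 1. All 10 genes had a start in the table and a match before at least 1 of their starts, as did 41.5% of the 27025 genes in the table. Over single starts, 11 of 13 starts of the 10 genes had a match, against 38.6% of 32851 starts. The 3 sequences below are shown because Pdk1 is the gene that changed, Ldha the most abundant of the 10 per kilobase, and Hk2 a kinase whose libraries also separated by title. Capitals mark the matches, and each sequence runs 5′ to 3′ and ends at the base before the start. Pdk1 lies on the plus strand at chr2:71872974-71873223, Ldha on the plus strand at chr7:46845554-46845803 and Hk2 on the minus strand at chr6:82774455-82774704.
Pdk1: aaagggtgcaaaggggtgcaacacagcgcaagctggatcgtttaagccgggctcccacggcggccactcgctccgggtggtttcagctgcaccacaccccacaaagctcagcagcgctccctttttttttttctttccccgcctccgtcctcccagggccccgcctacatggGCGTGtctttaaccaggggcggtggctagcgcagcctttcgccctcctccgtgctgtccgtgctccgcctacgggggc
Ldha: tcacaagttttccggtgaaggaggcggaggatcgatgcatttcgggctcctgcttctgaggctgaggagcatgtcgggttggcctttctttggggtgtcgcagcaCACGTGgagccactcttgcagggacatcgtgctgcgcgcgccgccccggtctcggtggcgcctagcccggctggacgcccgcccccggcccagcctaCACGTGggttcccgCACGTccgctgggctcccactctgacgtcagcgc
Hk2: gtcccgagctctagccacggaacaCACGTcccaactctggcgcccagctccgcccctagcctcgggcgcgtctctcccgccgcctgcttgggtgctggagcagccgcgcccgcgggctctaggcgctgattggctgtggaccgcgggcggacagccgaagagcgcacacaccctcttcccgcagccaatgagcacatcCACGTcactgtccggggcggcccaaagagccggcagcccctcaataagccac
The match of Pdk1 began 78 bases before the start, and a second annotated start of Pdk1 had 0 matches. The other pyruvate dehydrogenase kinase genes, outside the 10, had matches too. Pdk3 had 4, Pdk4 had 1, and Pdk2 had 1 before 1 start and 0 before another. Vegfa had 0 matches before its upstream start, and its 2 matches lay before a start further downstream. Those 2 matches are in sequence that follows the upstream start, and Vegfa is among the 10 genes with a match only through them. Ldha had 3 separate matches before the start shown and 1 before a second start, Hk2 had 2, at 226 and 52 bases before the start, and Bnip3 had 4. A match describes the sequence only: binding was not measured in these libraries.

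Pdk1 fell in the KO-titled libraries. Its level was 147.5, 153.4 and 156.8 CPM in KO-titled libraries 1 to 3 and 232.6 and 230.3 CPM in WT libraries 1 and 2. The groups did not overlap, and the lowest WT library stood 1.47 times above the highest KO-titled one. The log2 fold change was -0.60 ± 0.08 (SE; 95% interval -0.78 to -0.43), a 1.52-fold fall, with an adjusted p = 0.00254 by edgeR's quasi-likelihood test over 14565 genes. Pdk1 was the 1 member of the 10 that passed; 1.97% of all genes tested passed in either direction, 0.79% as higher and 1.18% as lower. It ranked 31 of 14565 by p. The raw counts behind these levels ran from 5326 to 6194 in KO-titled libraries against 6975 and 9004 in WT libraries. The size of the change hardly moved when a library was left out, but its call rested on both WT libraries. The log2 fold change was -0.59 ± 0.11 without WT library 1 and -0.61 ± 0.10 without WT library 2. Those fits hold 1 WT library each and called far fewer of all genes tested, and Pdk1 was not called in them.

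**Figure D1:**
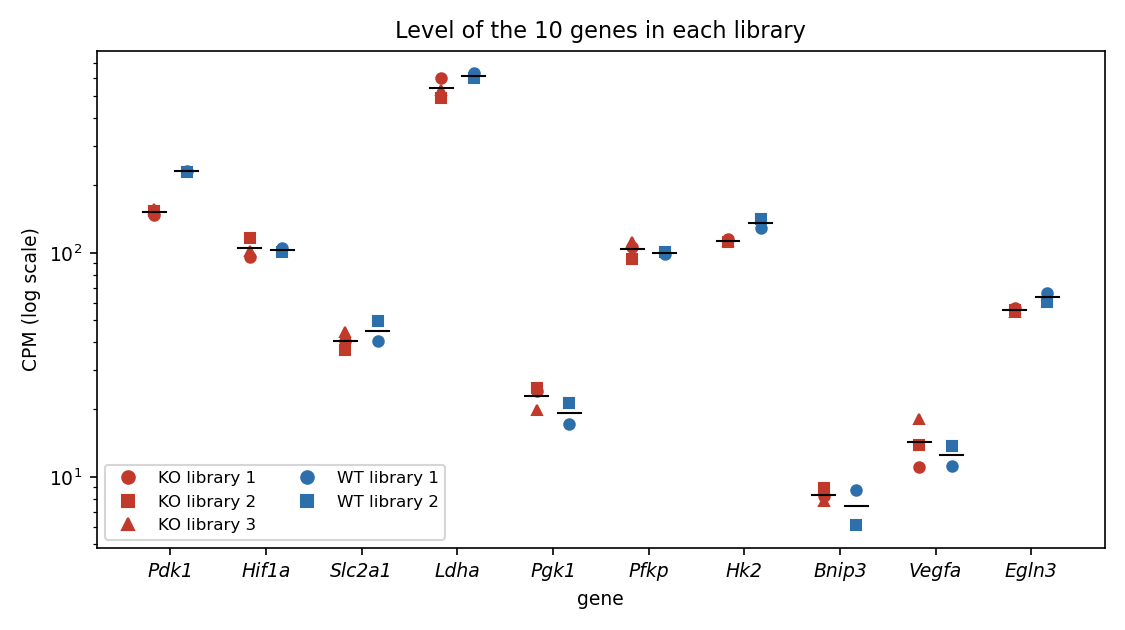
CPM (log axis) of the 10 genes in each library, with KO-titled libraries in red, WT libraries in blue and a bar at each group mean. The 3 KO-titled points of Pdk1 sit between 147.5 and 156.8 CPM, below both WT points, while the points of Hif1a, Pfkp, Bnip3 and Vegfa overlap between groups.

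Of the 4 pyruvate dehydrogenase kinases, which inhibit the same complex, Pdk1 was the 1 that passed. Pdk2 stood at 34.1, 33.4 and 33.5 CPM in KO-titled and 40.9 and 41.1 CPM in WT libraries. These groups did not overlap, but the log2 fold change of -0.28 ± 0.12 did not pass (adjusted p = 0.307, edgeR). Pdk3 had 107.8 to 126.4 CPM in KO-titled and 112.6 and 115.8 CPM in WT libraries, with a log2 fold change of 0.02 ± 0.10 (95% interval -0.19 to 0.23). That interval does not reach the interval of Pdk1; the difference between these genes was not tested. Pdk4 was rare, with 28 to 34 counts in KO-titled and 19 and 78 counts in WT libraries. The ratio of Pdk1 to Pdk3 counts within a library, which no scaling affects, was 1.17, 1.42 and 1.38 in KO-titled and 2.01 and 2.05 in WT libraries.

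Divided by transcript length, Pdk3 was the most abundant of the 4 kinases in every library. Pdk1 made up 27.4%, 30.9% and 30.5% of their summed level (CPM per kilobase) in KO-titled libraries and 38.0% and 38.1% in WT libraries. Pdk3 made up 57.6%, 53.3% and 54.3% against 46.4% and 45.7%. The share of Pdk2 was 14.7% to 15.5% against 15.4% and 15.7%, and that of Pdk4 stayed below 0.50%. The summed level was 103.7, 95.6 and 99.2 CPM per kilobase in KO-titled and 118.0 and 116.5 in WT libraries. The shares of Pdk1 and Pdk3 and the sum separated the groups; with 3 against 2 libraries a two-sided exact permutation test cannot go below p = 0.2, so the shares were not tested. The shares rest on matched transcript lengths of 5185 nucleotides for Pdk1 and 2115 for Pdk3.

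**Figure D2:**
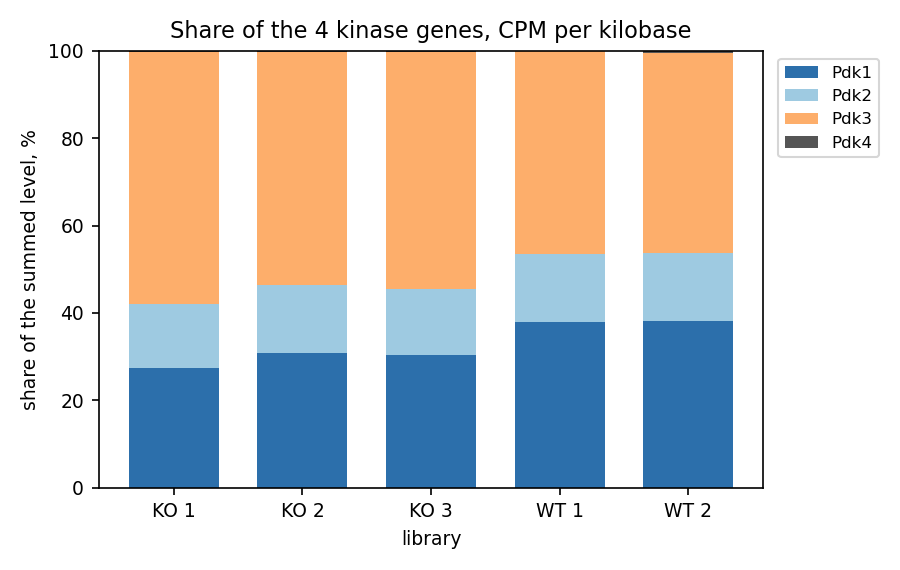
Share (%) of Pdk1, Pdk2, Pdk3 and Pdk4 in their summed CPM per kilobase, 1 stacked bar per library. The Pdk1 segment covers 27.4% to 30.9% of the KO-titled bars and 38.0% to 38.1% of the WT bars.

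The complex that these kinases inhibit showed no called change. Of 15 genes of pyruvate entry into mitochondria, all tested, 0 rose and 1, Pdk1, fell, where 0.79% of all genes rose and 1.18% fell. The median log2 fold change was -0.06, against 0.001 over all genes tested. Pdha1, the catalytic subunit that the kinases phosphorylate and the list's gene with the highest CPM, stood at 291.8 ± 19.2 CPM (SD, n = 3) against 305.7 ± 2.61 CPM (n = 2), with a log2 fold change of -0.07 ± 0.08 (adjusted p = 0.787, edgeR). Dlat and Dld, which encode the other enzyme components of the complex, had log2 fold changes of 0.16 ± 0.11 and 0.03 ± 0.10, and Pdp1, a phosphatase that reverses the kinases, one of 0.21 ± 0.15. Mpc2, a subunit of the mitochondrial pyruvate carrier, stood at 25.4, 26.4 and 24.7 CPM in KO-titled and 20.6 and 20.5 CPM in WT libraries, without passing (adjusted p = 0.361, edgeR). Dlat, Dld, Pdp1 and Mpc2, all above 0, were named after their values were seen. Of the 15 genes, 7 log2 fold changes were above and 8 below 0. Among those below were Pdhb (-0.06 ± 0.11), Pdp2 (-0.18 ± 0.18) and the rare Mpc1 (-0.34 ± 1.19, mean 0.50 CPM).

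Hif1a showed no called change. Its level was 95.9, 117.0 and 101.4 CPM in KO-titled and 105.0 and 100.9 CPM in WT libraries, and the groups overlapped. The log2 fold change was 0.03 ± 0.10 (adjusted p = 0.947, edgeR), and its 95% interval of -0.20 to 0.25 does not include a fall of the size of Pdk1. Among the 3 HIF alpha genes, Hif1a made up 82.5% to 88.4% of the summed level per kilobase over the 5 libraries. Epas1, which encodes HIF-2 alpha, stood at 4.49, 4.04 and 5.93 CPM in KO-titled and 6.94 and 8.70 CPM in WT libraries. Those libraries did not overlap, yet the log2 fold change of -0.70 ± 0.28 did not pass (adjusted p = 0.2945, edgeR). Arnt, the shared partner subunit, had 97.4 ± 4.38 CPM (SD, n = 3) against 93.7 ± 5.80 CPM (n = 2).

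Egln3, a prolyl hydroxylase that marks HIF alpha subunits for degradation and is itself a HIF target, did not pass. It stood at 56.6, 55.3 and 54.4 CPM in KO-titled libraries against 66.5 and 60.4 CPM in WT libraries. All KO-titled libraries lay below both WT libraries, and the log2 fold change was -0.19 ± 0.10 (adjusted p = 0.451, edgeR). Its paralogues Egln1 and Egln2 overlapped between groups, with log2 fold changes of 0.04 ± 0.10 and 0.02 ± 0.14. Per kilobase, Egln3 made up 35.4% to 38.7% of the 3 hydroxylases in KO-titled and 43.6% and 38.4% in WT libraries, so its share overlapped. Of 17 genes of oxygen sensing, 16 were tested and 0 rose and 0 fell with edgeR, where 0.79% of all genes rose and 1.18% fell. The median log2 fold change was 0.03, and 1 gene had an unadjusted p under 0.05, against 13.8% of all genes. DESeq2, which called 3.64% of all genes, also called 0. Vhl, which recruits hydroxylated HIF alpha to a ubiquitin ligase, had a log2 fold change of 0.14 ± 0.12, and the coactivator Ep300, with the highest CPM of the list, one of 0.02 ± 0.13.

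Glucose uptake and the upper steps of glycolysis held no called gene. Slc2a1, the glucose transporter GLUT1, stood at 40.3, 36.7 and 44.2 CPM in KO-titled and 40.4 and 49.6 CPM in WT libraries (log2 fold change -0.16 ± 0.13, adjusted p = 0.676, edgeR). Its paralogue Slc2a3, GLUT3, held 72.3% to 76.9% of the level per kilobase of both transporters over the 5 libraries and had a log2 fold change of 0.04 ± 0.10. Both transporters overlapped between groups.

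Hk2, a hexokinase that phosphorylates glucose on entry, had the lowest adjusted p of the 10 genes after Pdk1. Its level was 115.3, 111.4 and 112.4 CPM in KO-titled and 129.5 and 141.3 CPM in WT libraries, and the groups did not overlap. The log2 fold change was -0.26 ± 0.09 with an unadjusted p = 0.0115 and an adjusted p = 0.193 by edgeR; 13.8% of all genes had an unadjusted p under 0.05. Hk1, which held 67.0% to 70.8% of the hexokinase level per kilobase, had a log2 fold change of -0.11 ± 0.09, and Hk3 one of -0.18 ± 0.14. Of the 10 genes, 3 (Pdk1, Hk2 and Egln3) had every KO-titled library below every WT library and 0 the reverse, while 32.8% of all genes tested did not overlap, 16.3% lying wholly below and 16.5% wholly above.

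Pfkp, the platelet-type phosphofructokinase, stood at 106.2, 93.5 and 112.0 CPM in KO-titled and 98.99 and 100.3 CPM in WT libraries. Its groups overlapped, and the log2 fold change was 0.06 ± 0.10 (95% interval -0.16 to 0.28). It held 19.0% to 22.5% of the level per kilobase of the 3 phosphofructokinase genes, and Pfkl and Pfkm had log2 fold changes of -0.02 ± 0.09 and -0.02 ± 0.10. None of the 3 was called with edgeR.

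In the lower steps, Pgk1, which makes ATP from bisphosphoglycerate, stood at 24.1, 24.9 and 19.9 CPM in KO-titled and 17.1 and 21.4 CPM in WT libraries (log2 fold change 0.25 ± 0.17, adjusted p = 0.571, edgeR). Pgk1 is uncertain: RefSeq names 3 pseudogenes after it, and how reads shared with such copies were counted is not given. The same holds for Gapdh, which had only 55 to 95 counts per library although it is an abundant housekeeping gene in most cells. Ldha, which reduces pyruvate to lactate and also has 3 named pseudogenes, was the most abundant of the 10 genes per kilobase (298.3 against 339.2 CPM per kilobase). It stood at 599.8, 490.3 and 534.3 CPM in KO-titled and 631.8 and 599.5 CPM in WT libraries. KO-titled library 1 reached just above WT library 2, and the log2 fold change of -0.19 ± 0.09 did not pass (adjusted p = 0.394, edgeR). Ldha was called without KO-titled library 1 (log2 fold change -0.27, adjusted p = 0.0305), which made 2 called members where 4.7% of all genes tested passed.

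Ldhb, the isoform that favours the reverse reaction, had 50.4, 41.7 and 50.5 CPM in KO-titled and 36.6 and 44.1 CPM in WT libraries (log2 fold change 0.23 ± 0.14). The ratio of Ldha to Ldhb counts within a library was 11.9, 11.8 and 10.6 in KO-titled and 17.3 and 13.6 in WT libraries. This ratio separated the groups, whereas neither gene did, and it was not tested. The count ratio of Hk2 to Hk1 also separated them, but narrowly, at 0.221, 0.22 and 0.188 in KO-titled and 0.223 and 0.238 in WT libraries. Per kilobase, the share of Hk2 among the 3 hexokinases overlapped (9.95% to 12.15% against 11.69% and 12.4%). The count ratio of Egln3 to Egln1 separated the groups as well. Of all single genes tested, 32.8% did not overlap, and the share for ratios of 2 genes was not computed. Over the whole list of glucose uptake and glycolysis, 27 of 27 genes were tested and 0 rose and 0 fell with edgeR or DESeq2. Over all genes tested, edgeR called 1.97% and DESeq2 3.64%. With edgeR 2 genes of the list had an unadjusted p under 0.05, against 13.8% of all genes. The median log2 fold change was -0.03, with 9 genes above and 18 below 0. The other gene at an unadjusted p under 0.05, named after its values were seen, was the lactate exporter Slc16a3. It stood at 5.81, 6.40 and 5.80 CPM against 10.5 and 8.24 CPM (log2 fold change -0.64 ± 0.24, adjusted p = 0.259, edgeR). Pkm, the pyruvate kinase and, after Ldha, the gene of the list with the highest mean CPM, had a log2 fold change of -0.13 ± 0.08.

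**Figure D3:**
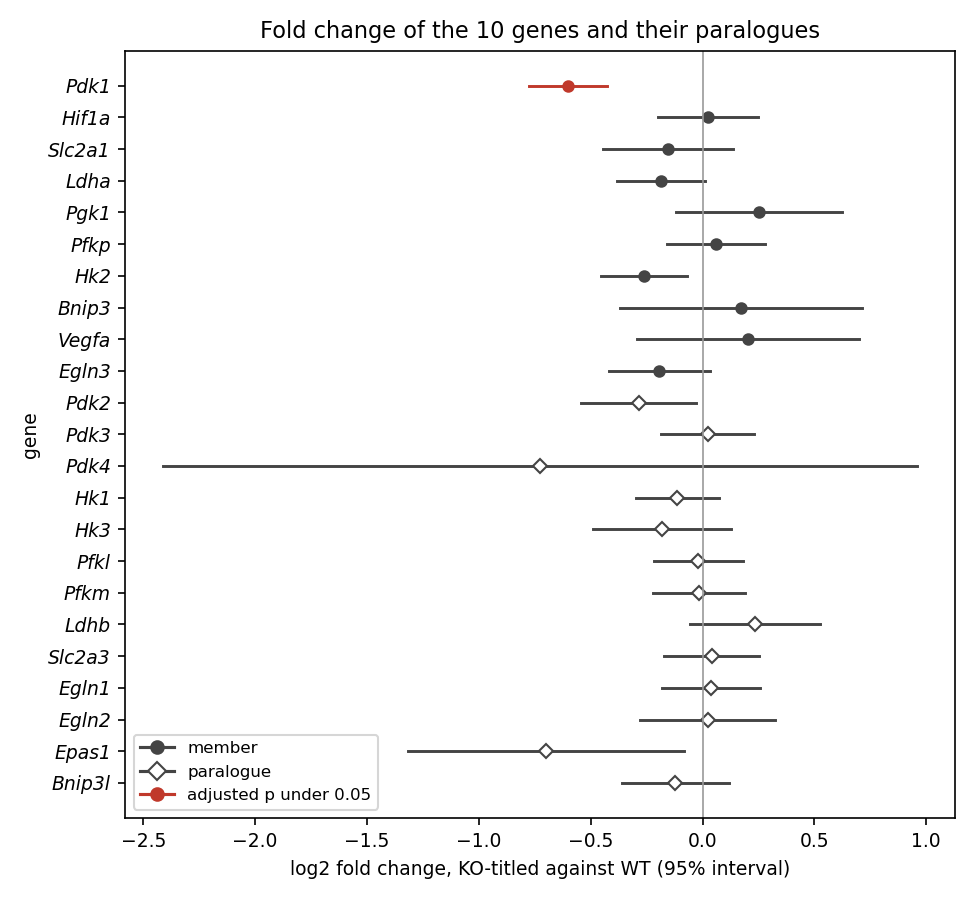
Log2 fold change (KO-titled against WT) with 95% interval from edgeR for the 10 genes (filled circles) and 13 paralogues (open diamonds), red where the adjusted p is under 0.05. Pdk1, at -0.60, is the only red point among the genes drawn, and the wide interval of Pdk4 goes with its 19 to 78 counts per library.

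Bnip3 and Vegfa, the hypoxia targets outside glycolysis, overlapped between groups and had the lowest levels of the 10 genes per kilobase (3.47 to 5.07 and 3.19 to 5.24 CPM per kilobase over the 5 libraries). Bnip3, a mitochondrial protein that promotes mitophagy, stood at 8.25, 8.90 and 7.77 CPM in KO-titled and 8.71 and 6.09 CPM in WT libraries. The log2 fold change was 0.17 ± 0.25 (adjusted p = 0.832, edgeR), and WT library 1 lay among the KO-titled libraries. Vegfa, the angiogenic growth factor, stood at 11.0, 13.9 and 18.1 CPM against 11.2 and 13.8 CPM (log2 fold change 0.20 ± 0.23, adjusted p = 0.769, edgeR). Counts per library were 238 to 348 for Bnip3 and 335 to 714 for Vegfa. Their 95% intervals ran from -0.37 to 0.71 and from -0.29 to 0.70, so both intervals include a rise as large as the fall of Pdk1. Bnip3l, a paralogue with the same role, held 83.5% to 88.9% of the level per kilobase of both genes and had a log2 fold change of -0.12 ± 0.11.

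Bhlhe40 fell among the other hypoxia targets. It encodes a transcriptional repressor that is also tied to the circadian clock. Of 35 listed targets 33 were tested, and 0 rose and 1 fell with edgeR, where 0.79% of all genes rose and 1.18% fell. With DESeq2, which called 3.64% of all genes, 1 rose and 1 fell, and with limma and sample weights 2 rose and 2 fell. Without KO-titled library 1, 3 rose and 3 fell with edgeR, where 4.7% of all genes were called. The median log2 fold change was 0.01, with 17 above and 16 below 0. An unadjusted p under 0.05 was found with edgeR for 10 of the 33, a larger share than the 13.8% of all genes. Bhlhe40 stood at 18.0, 13.6 and 17.7 CPM in KO-titled and 27.3 and 33.9 CPM in WT libraries, without overlap. It fell 1.86-fold (log2 fold change -0.90 ± 0.17, adjusted p = 0.0178, edgeR). The call was lost without KO-titled library 3 (log2 fold change -0.95, adjusted p = 0.0533, edgeR), where 135 of all genes were called against 287 as reported. The call was also lost without WT library 1 (-1.04) and without WT library 2 (-0.73). Those fits hold 1 WT library each and called far fewer of all genes tested. Ndrg1 and Cxcr4, with the highest CPM of the list, had log2 fold changes of -0.29 ± 0.09 and 0.26 ± 0.09 that did not pass (adjusted p = 0.168 and 0.21, edgeR), though neither overlapped between groups. P4ha1, a collagen prolyl hydroxylase subunit named after its values were seen, stood at 71.0, 72.1 and 64.4 CPM against 52.9 and 51.0 CPM (log2 fold change 0.41 ± 0.11, adjusted p = 0.0757, edgeR), and was called in 5 of 14 alternatives, among them DESeq2 (adjusted p = 0.028). The targets with the lowest unadjusted p therefore lay on both sides of 0.

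**Figure D4:**
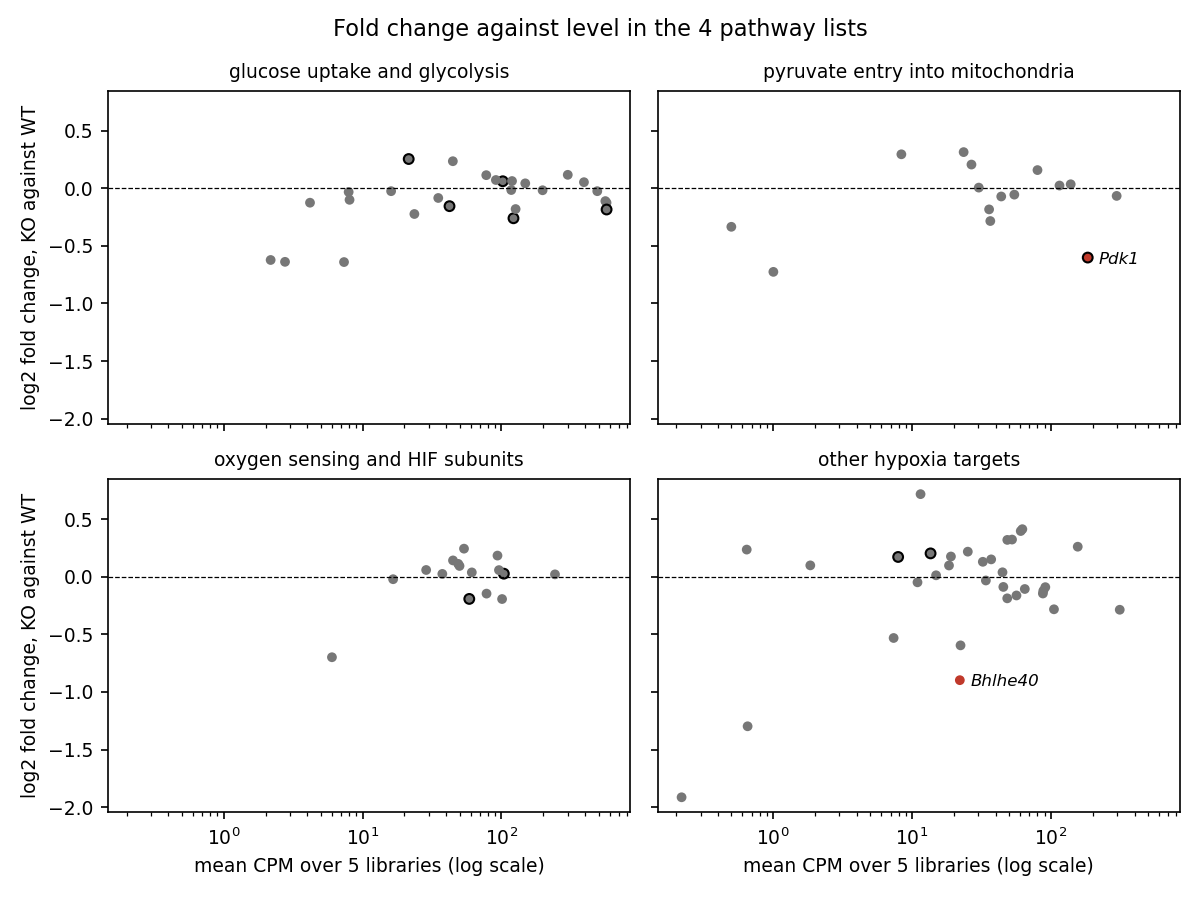
Log2 fold change (KO-titled against WT) against mean CPM over the 5 libraries (log axis) for the tested genes of 4 lists, with members outlined in black, called genes in red and the median of all genes (0.001) dashed. Pdk1 and Bhlhe40 are the 2 called genes, at -0.60 and -0.90.

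Among the 4 lists together, 91 of 94 genes were tested, and 0 rose and 2 fell with edgeR, where 0.79% of all genes rose and 1.18% fell. In 16 the KO-titled libraries lay wholly above and in 16 wholly below WT, beside 16.5% and 16.3% of all genes tested. Within the 10 genes, 5 log2 fold changes were below and 5 above 0, with a median of -0.07 and a range from -0.60 to 0.25. The profile of Pdk1 over the 5 libraries, as log2 CPM centred on each gene's mean, was compared with 12728 genes by root mean square difference. The nearest were C1qtnf6 (0.0315), 9130023H24Rik (0.0391), Inpp5f (0.0472), Smim3 (0.0505) and BC048403 (0.0559). C1qtnf6 stood at 27.0, 28.7 and 30.7 CPM in KO-titled and 43.6 and 43.7 CPM in WT libraries. The nearest members were Hk2 (0.179, rank 600) and Egln3 (0.21, rank 1089), and the farthest was Pgk1 (0.452, rank 10443). Hif1a ranked 5157, at 0.317. The members' order by this distance is their order by log2 fold change, from Hk2 (-0.26) and Egln3 (-0.19) to Pgk1 (0.25). The distance therefore restates the fold changes and is no separate evidence of a link to Pdk1.

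**Figure D5:**
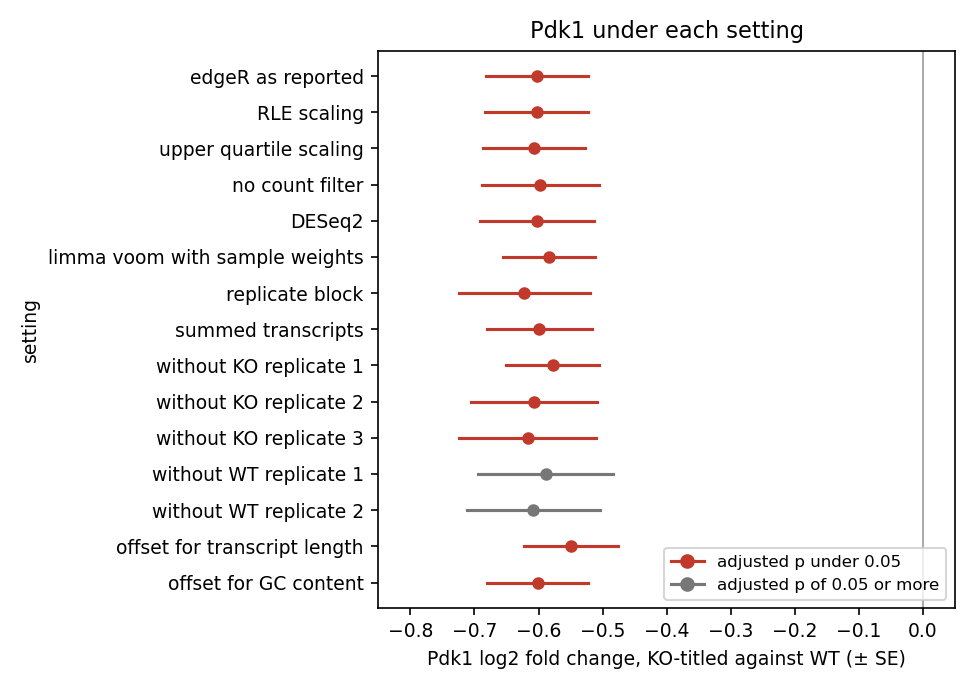
Log2 fold change of Pdk1 (KO-titled against WT, ± SE) as reported and under 14 other settings, red where the adjusted p is under 0.05 and grey where it is not. All values lie between -0.62 and -0.55, and the 2 grey points are the fits that leave out a WT library.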

How the data were processed

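Libraries of sorted LSK cells were made with a strand-specific mRNA kit, per the labels' protocols. The authors' deposited table gives whole-number read counts, not normalized, with 33862 RefSeq transcripts as rows and 5 libraries as columns. STAR, Subread 1.4.5-p1, featureCounts and the build mm9 (NCBIM37) are named per the submitters' processing notes; their settings, the use of strand and the handling of shared reads are not given, so overlapping, antisense and near-identical genes are uncertain.

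Rows were named from RefSeq (GRCm38.p6; 33485), from GENCODE vM21 (188), or left under their own identifier (189; 0.362% to 0.459% of counts), and the row with the most counts was kept per gene. The test was the robust quasi-likelihood test of edgeR 4.0.16 in R 4.3.3, after filterByExpr and TMM scaling, two-sided, with p adjusted over all genes (Benjamini-Hochberg) and a threshold of 0.05. The spread between libraries of a group, as edgeR's common coefficient of variation, was 18.9%. Transcript lengths came from GENCODE transcripts matched to rows with at least 99% of the kept row's counts. The floor of 3 counts equalled 0.076 to 0.1 CPM. Alternatives used DESeq2 1.42.0 and limma 3.58.1; length and GC offsets were added after the data were seen.

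The 10 genes and all lists were chosen with earlier results of these data known. Also named were, per pathway list, up to 4 called genes or, with fewer than 2 called, the 2 most abundant as well; paralogues; and the 5 genes nearest to Pdk1. Marker lists are given by counts and sums. Other named genes were chosen after their values were seen. The check of the targeted gene is not reported here.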

Additional observations from a re-analysis of the deposited data

How the results depend on the processing

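Pdk1 was lower in all 14 alternatives (log2 fold change -0.62 to -0.55) and was called in 12. With 1 library left out it ranged from -0.62 to -0.58, losing its call without WT library 1 (-0.59) and without WT library 2 (-0.61); those fits hold 1 WT sample, whose variation is assumed to equal that of the KO-titled libraries. The number of called genes among the 10 was 1 in the other settings, 2 without KO-titled library 1, where Ldha was added, and 0 without either WT library. The number of all genes that changed moved far more than these values. Changed genes, with those higher and those lower, numbered 287, 115 and 172 as reported, 455, 200 and 255 with no count filter, 524, 240 and 284 with DESeq2, and 567, 218 and 349 with limma and sample weights. With 1 library left out they ran from 6 (without WT library 1) to 675 (without KO-titled library 1) changed, from 2 to 312 higher and from 4 to 363 lower; they were 18, 11 and 7 without WT library 2 and 135, 42 and 93 without KO-titled library 3. The causes were not tested.

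In the replicate block fit, which adds the library numbers to the model, Pdk1 stood at -0.62 ± 0.10 and was still called, Bhlhe40 lost its call (-0.96 ± 0.21, adjusted p = 0.0543, edgeR), and 160 genes changed, 54 higher and 106 lower, 142 of them among the 287. The labels do not say that the numbers pair the libraries, and deviations of same-numbered libraries from their group means correlated at 0.043 and 0.017 over genes. Scaling moved the median log2 fold change of all genes by less than 0.02. Pdk4, Bnip3, Vegfa and Epas1 had the widest intervals among the genes drawn, and whether depth or spread between libraries widened them was not tested.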
